A study of Homo sapiens with 8 samples.

Results

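The 10 genes described here are the keratins KRT5, KRT6A, KRT7, KRT8, KRT14, KRT15, KRT16, KRT17, KRT18 and KRT19, 10 of the 23391 genes listed in the deposited count table. They were taken by symbol, without use of their values, as 6 basal and stress keratins (KRT5, KRT6A, KRT14, KRT15, KRT16 and KRT17) and 4 simple epithelial keratins (KRT7, KRT8, KRT18 and KRT19). RNA-Seq was performed on 8 libraries of DU145 cells, a human prostate carcinoma line isolated from a brain metastasis, with 2 biological replicates in each of 4 groups. DU145-Esrrb cells carried the estrogen related receptor Esrrb in the vector pcDNA3.1-zeo (+), and DU145-pc3.1 cells carried the empty vector. Both are pools of stably transfected cells, kept in Zeocine for 3 weeks, so neither is a single clone, and all cells were grown in medium with charcoal-stripped FBS. Each pool was studied untreated and after 3 μM DY131, a synthetic ligand of Esrrb and Esrrg, diluted in the same medium. The duration of the treatment is not given in the sources used here. The groups are named DU145-pc3.1, DU145-Esrrb, DU145-pc3.1 DY131 and DU145-Esrrb DY131, and the libraries of the last group, whose columns carry no number, are called a and b.

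Keratins are the intermediate filament proteins of epithelial cells. A filament needs a type I keratin and a type II keratin as partners, and the partners are made together in a given epithelium. In simple epithelia, and in the luminal cells of the prostate, the type II keratin KRT8 pairs with the type I keratin KRT18, often beside KRT7 (type II) and KRT19 (type I). Basal cells of the prostate and of stratified epithelia make KRT5 (type II) with KRT14 or KRT15 (type I), while KRT6A (type II), KRT16 and KRT17 (type I) appear in skin after wounding and in other stressed or proliferating epithelia.

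The keratins of one type resemble each other so closely that a read of 50 bases, the length sequenced here, may not tell them apart. The stretch shown is from the exon 1 of KRT16 that encodes the start of the rod, because the same 50 bases occur in KRT14 and KRT17. It is given with the matching stretch of the other type I members, and capitals mark the bases that differ from the KRT16 stretch (GRCh38, read on the strand of each gene).
KRT16, chr17:41612282-41612331, minus strand: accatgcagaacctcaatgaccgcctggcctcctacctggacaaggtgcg
KRT14, chr17:41586434-41586483, minus strand: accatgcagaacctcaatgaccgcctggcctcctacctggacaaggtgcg
KRT17, chr17:41624202-41624251, minus strand: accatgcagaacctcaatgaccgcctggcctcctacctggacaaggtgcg
KRT15, chr17:41518457-41518506, minus strand: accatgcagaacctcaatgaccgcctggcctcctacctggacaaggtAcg
KRT19, chr17:41527952-41528001, minus strand: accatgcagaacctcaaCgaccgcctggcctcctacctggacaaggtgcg
KRT18, chr12:52949420-52949469, plus strand: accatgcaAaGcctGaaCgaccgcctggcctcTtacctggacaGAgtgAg

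KRT15 and KRT19 differed from this stretch at 1 base each, so in this stretch 1 base separates a read of either from reads of KRT14, KRT16 and KRT17. KRT18 differed at 8 bases. Over the whole transcripts in GENCODE, 41.4% of the 50-base windows of KRT8 and 31.8% of those of KRT18 occurred unchanged in transcripts of other genes, 39 genes for KRT8 and 44 for KRT18. KRT8P3 shared the most windows with KRT8 (24.1%) and KRT18P11 the most with KRT18 (9.98%), and both are processed pseudogenes. KRT6A shared 39.1% of its windows, most often with KRT6C, KRT14 23.8%, most often with KRT16, KRT16 22%, most often with KRT16P3, and KRT17 17.4%, most often with KRT17P1. KRT7 (1.06%), KRT19 (1.79%), KRT5 (3.99%) and KRT15 (0.328%) shared few. These shares leave out genes that overlap the locus of the keratin. Such genes matched 182 of 1705 windows of KRT7 and 333 of 1513 windows of KRT18, with up to 2 mismatches. How the counting treated reads that fit several genes is not given in the sources used here. The levels of KRT7, KRT8, KRT18, KRT6A, KRT14, KRT16 and KRT17 are therefore uncertain by the reads that could be split.

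**Figure D1:**
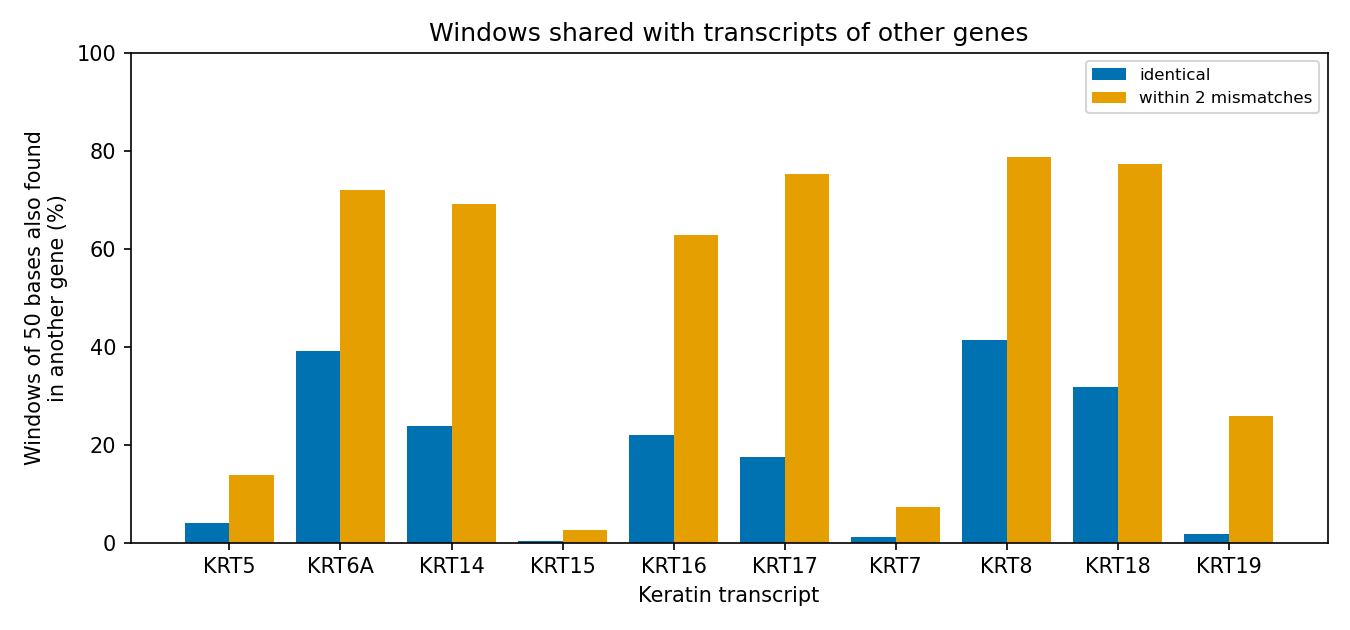
Share of the 50-base windows of each keratin transcript (in percent) that also occurs in a transcript of another gene, unchanged (blue) or with up to 2 mismatches (orange). Genes that overlap the locus of the keratin are left out. With 2 mismatches allowed, KRT8 reached 78.8%, KRT18 77.4% and KRT19 25.8%, while KRT7 stayed at 7.33% and KRT15 at 2.56%.

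KRT8 and KRT18 are neighbours on chromosome 12 of GRCh38 (KRT8 52897187 to 52949954, KRT18 52948871 to 52952901), on opposite strands, and 525 bases of their annotated exons overlap when every transcript is counted. The KRT8 transcript used for lengths here shared 0 bases with exons of KRT18. KRT7 (52232520 to 52252186), KRT5 (52514575 to 52520687) and KRT6A (52487174 to 52493257) also lie on chromosome 12. The other type I members lie together on chromosome 17, with KRT15 from 41513743 to 41522529, KRT19 from 41523617 to 41528308, KRT14 from 41582279 to 41586921, KRT16 from 41609778 to 41615899 and KRT17 from 41619441 to 41624842.

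Between 7858743 and 11551690 reads per library were counted on genes, the fewest in library a of DU145-Esrrb DY131. ESRRB was counted 99 to 143 times in each library of the Esrrb pools and 0 to 3 times in each library of the control pools, as the labels state. The epithelial genes EPCAM and CDH1 were present in every library, and the prostate luminal genes KLK3, TMPRSS2 and HOXB13 had at most 1 read. Of the basal markers, the regulator TP63 had 0 to 2 reads, while the integrins ITGB4 and ITGA6 were at 70.5 to 142 and at 210 to 408 cpm. The basal markers summed to 500 to 544 cpm in DU145-pc3.1 DY131 and to 344 to 354 cpm in the other groups, and their part in the keratin values was not tested. Endothelial markers summed to at most 1.29 cpm (counts scaled to the effective library size), and the leukocyte markers PTPRC and CD3E had at most 1 read, while CD68 was at 59.3 to 93.5 cpm. The libraries of DU145-pc3.1 DY131 stood apart from each other: their counts differed 7.1 times as much as counting noise gives (chi-square per degree of freedom), against 1.29 to 2.6 times in the other groups. For this reason, values without either of them are given where they matter.

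Of the 6 basal and stress keratins, only KRT15 had more than 3 reads in any library. KRT5, the main type II keratin of basal cells, had 1 read in 1 of the 8 libraries (DU145-Esrrb replicate 2), and KRT14 had 1 read in 1 library (DU145-pc3.1 replicate 2). KRT6A had 3 reads in replicate 2 of DU145-pc3.1 DY131 and 0 in the other 7 libraries. These counts are at or below 3 reads, the upper limit that a count of 0 allows, which corresponds to 0.255 to 0.391 cpm in these libraries. At this depth no difference between groups was detectable for these genes, and no fold change is given. The limit covers counting error only.

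KRT16 had 1 read in 6 of the 8 libraries and 0 in the others, namely replicate 1 of DU145-pc3.1 DY131 and library a of DU145-Esrrb DY131. KRT17 was counted 0 and 1 times in DU145-pc3.1, 1 and 0 times in DU145-Esrrb, 3 and 3 times in DU145-pc3.1 DY131, and 1 and 1 times in DU145-Esrrb DY131. The 2 libraries with 3 reads were both of DU145-pc3.1 DY131. Reads of KRT17 were thus present, but the gene was below the level tested. KRT16 and KRT17 had at most 3 reads in every library, and no fold change is given for them.

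KRT15, the type I keratin of basal cells and hair follicle stem cells, had 26 and 15 reads in DU145-pc3.1, 32 and 27 in DU145-Esrrb, 35 and 21 in DU145-pc3.1 DY131, and 15 and 19 in DU145-Esrrb DY131. The mean levels were 1.9 ± 0.82 cpm, 2.6 ± 0.165 cpm, 2.68 ± 0.84 cpm and 2.05 ± 0.136 cpm in the same order (SD, n = 2). The replicates of DU145-pc3.1 and of DU145-pc3.1 DY131 spread as widely as the groups. KRT15 passed the test in none of the 6 comparisons, and its adjusted p was between 0.195 and 0.789 (quasi-likelihood test in edgeR, adjusted by Benjamini-Hochberg). KRT5, its usual type II partner, was at or below 1 read.

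**Figure D2:**
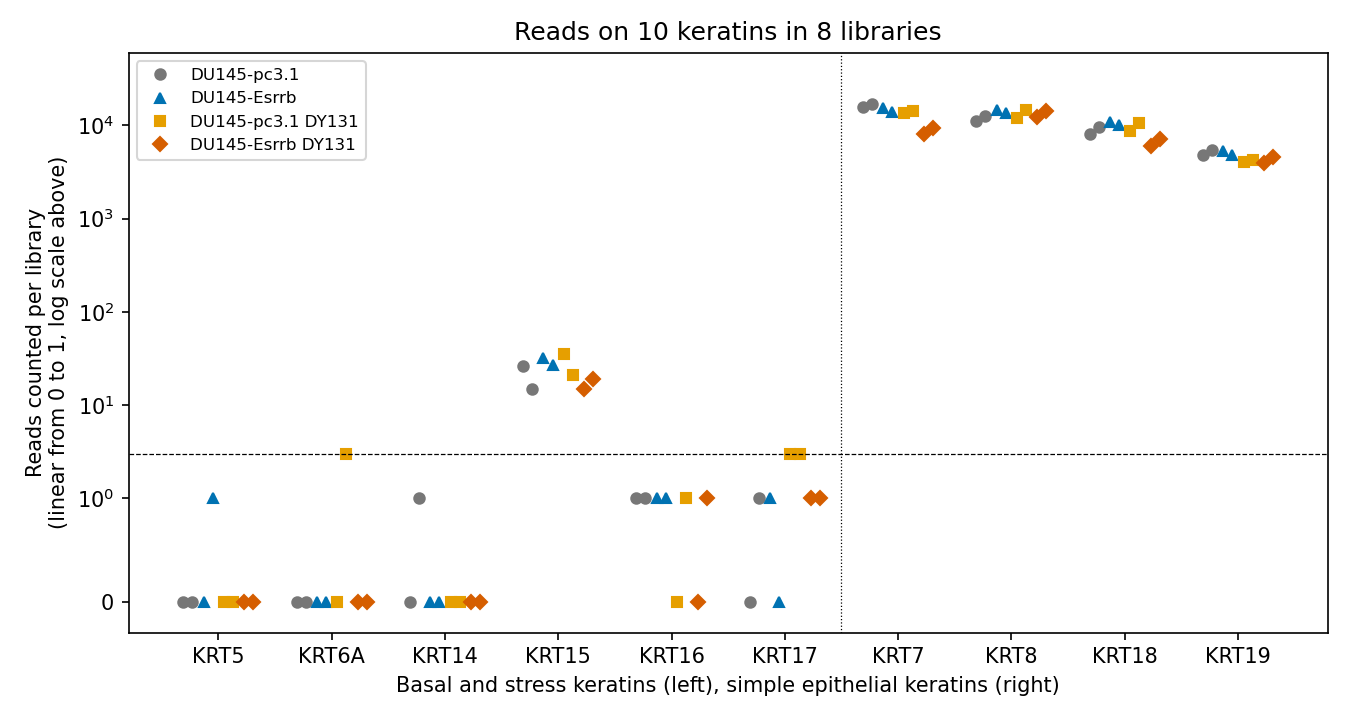
Reads counted on each of the 10 keratins in each of the 8 libraries, 1 symbol a library and 1 colour a group. The vertical axis is linear from 0 to 1 and logarithmic above, the dotted line divides the classes and the dashed line marks 3 reads; 5 of the 6 basal and stress keratins lie at or below it, while the simple epithelial keratins lie between 3914 and 16855 reads.

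The simple epithelial keratins were among the most counted genes. By cpm, KRT8 ranked between 26 and 53 among all genes of a library and KRT7 between 27 and 57, KRT18 between 59 and 111, and KRT19 between 242 and 409. Together the 4 genes took 0.361% to 0.422% of the reads on genes in each library. In RPKM, which scales reads to transcript length and effective library size so that genes can be compared, their summed level was 2356 ± 59.1 in DU145-pc3.1, 2389 ± 7.86 in DU145-Esrrb, 2414 ± 332 in DU145-pc3.1 DY131 and 2444 ± 9.77 in DU145-Esrrb DY131 (SD, n = 2). The sums of all groups lay within the spread of the DU145-pc3.1 DY131 libraries, which were the lowest (2179) and the highest (2649) of the 8.

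At the transcript lengths used, the order of the 4 genes within this sum was not the same in all groups. In DU145-pc3.1 the order of RPKM levels was KRT7 (851 ± 6.22), KRT8 (648 ± 24.3), KRT18 (519 ± 32.2) and KRT19 (338 ± 8.81), with no overlap between neighbours. In DU145-Esrrb, KRT8 (739 ± 0.886) and KRT7 (733 ± 12.1) did not differ beyond their spread, and KRT18 (593 ± 8.17) and KRT19 (324 ± 4.82) followed. In DU145-pc3.1 DY131, KRT8 (766 ± 141) overlapped both KRT7 (765 ± 61.3) and KRT18 (596 ± 104), KRT7 lay above KRT18 without overlap, and KRT19 (287 ± 25.4) was lowest. In DU145-Esrrb DY131 the order was KRT8 (961 ± 4.63), KRT7 (602 ± 2.23), KRT18 (513 ± 15.4) and KRT19 (368 ± 1.2). KRT7 held 36.9% and 35.3% of the summed RPKM in the libraries of DU145-pc3.1 but 24.8% and 24.5% in those of DU145-Esrrb DY131, whereas KRT8 held 27.3% and 27.7% in the former and 39.6% and 39.1% in the latter. The order within a group depends on the KRT8 transcript, here 1687 bases, while its longest RefSeq-matched transcript has 2126. With the longest, KRT8 was at 501 and 528 in DU145-pc3.1 and overlapped KRT18 (497 and 542). In DU145-Esrrb it was then at 586 and 587, below KRT7 (742 and 725). In DU145-Esrrb DY131 it stayed above KRT7, at 765 and 760 against 603 and 600.

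**Figure D3:**
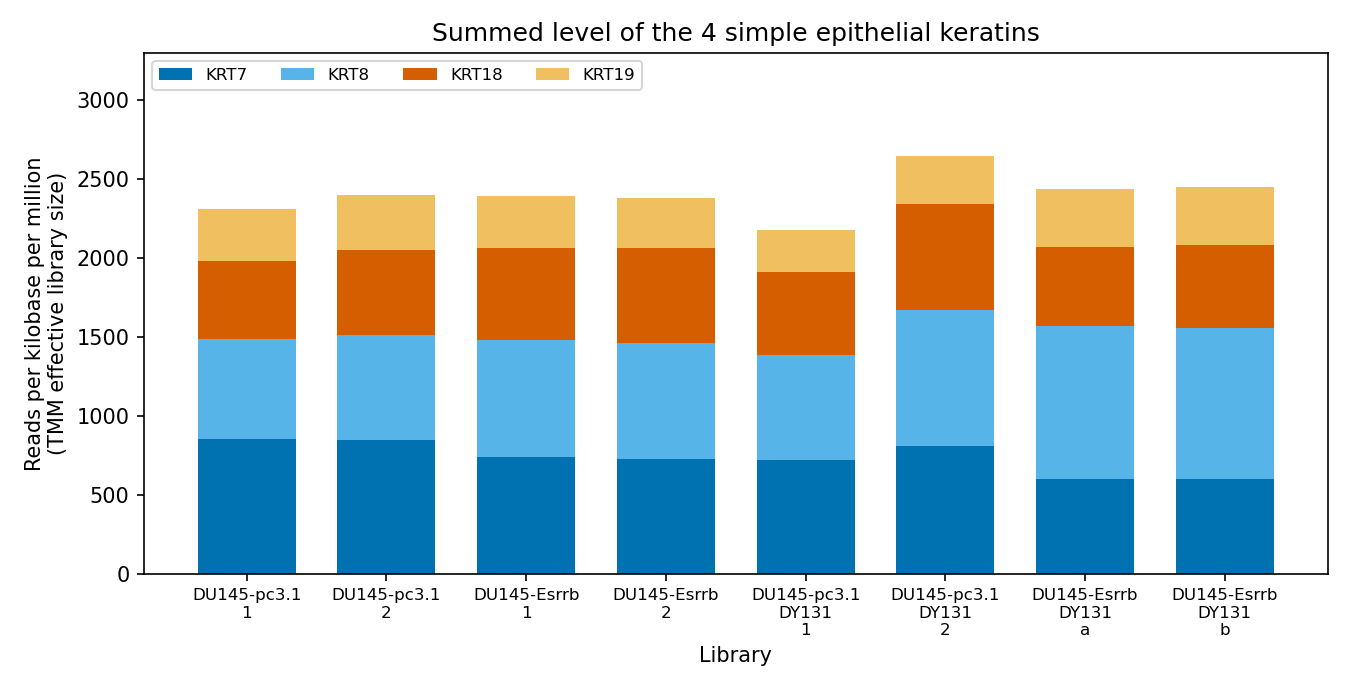
Summed RPKM level of the 4 simple epithelial keratins in each library (stacked bars from 0, 1 colour a gene). The total stayed between 2179 and 2649, while the KRT7 segment was smallest and the KRT8 segment largest in the 2 libraries of DU145-Esrrb DY131.

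Set side by side, the basal and stress keratins made up 0.0174% to 0.0371% of the summed RPKM of both classes. KRT15 gave 0.252 to 0.625 RPKM of a basal sum of 0.417 to 0.809 RPKM, and the other 5 genes together had 1 to 7 reads in a library. The GENCODE transcript of KRT15 is 5237 bases long and starts outside the gene as RefSeq bounds it. With exons within the RefSeq gene, 1712 bases, the share was 0.038% to 0.0936%, a choice made after the values were seen. On either length the basal class stayed under 0.1% of the sum in every library.

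The first comparison asked what Esrrb does to the keratins without ligand. None of the 5 tested keratins passed, where 4.18% of the 13856 tested genes passed (1.68% higher and 2.50% lower). In cpm, KRT7 was at 1500 and 1484 in DU145-pc3.1 and at 1301 and 1271 in DU145-Esrrb, so that the groups did not overlap. The same held for all 5 tested keratins in this comparison and for 51.6% of tested genes. Its log2 fold change was -0.21 ± 0.06 (SE) with an adjusted p of 0.0599. KRT8 (log2 fold change 0.19 ± 0.09, adjusted p = 0.286), KRT18 (0.19 ± 0.09, adjusted p = 0.286) and KRT19 (-0.06 ± 0.06, adjusted p = 0.686) also did not pass. The difference for KRT7 passed without replicate 1 or without replicate 2 of DU145-pc3.1 DY131 (adjusted p = 0.000432 and 0.000335), libraries outside this comparison that add to the shared estimate of spread. KRT8 and KRT18 passed in the same fits, KRT8 at adjusted p values of 0.00169 and 0.00187 and KRT18 at 0.00335 and 0.0039.

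DY131 in cells without the Esrrb vector was the second comparison. Among the 5 tested keratins, KRT8 rose and KRT19 fell, and 3 did not pass, where 37.4% of all tested genes passed (18.9% higher and 18.5% lower). The groups did not overlap for 3 of the 5 keratins and for 65.5% of tested genes. KRT8 was at 1064 and 1122 cpm in DU145-pc3.1 and at 1124 and 1460 cpm in DU145-pc3.1 DY131. The lower treated library was thus nearly level with the higher control library. The log2 fold change was 0.24 ± 0.09 (adjusted p = 0.0393), but 0.04 without replicate 2 of DU145-pc3.1 DY131 (adjusted p = 0.551) and 0.43 without replicate 1. The rise of KRT8 also did not pass without any 1 of the other 6 libraries, with adjusted p values from 0.0505 to 0.193, nor with DESeq2 (adjusted p = 0.173). Its partner KRT18 had a log2 fold change of 0.2 ± 0.09 (adjusted p = 0.0873), which was 0.01 without replicate 2 and 0.38 without replicate 1 of the treated libraries.

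KRT19 was at 462 and 479 cpm in DU145-pc3.1 and at 374 and 424 cpm in DU145-pc3.1 DY131, a log2 fold change of -0.24 ± 0.06 (adjusted p = 0.00755). Both treated libraries lay below both control libraries. KRT19 did not pass without replicate 2 of DU145-pc3.1 (-0.21, adjusted p = 0.069). Correcting all genes for the GC content and length of their transcripts brought it to 0.01 (adjusted p = 0.911). GC content correlated with the log2 fold changes of this comparison across 13608 genes (Spearman's rho -0.19, a description across genes), and KRT19, with 61.8% GC, lies at percentile 88.7 of tested genes. KRT7 was at 1266 and 1418 cpm in the treated libraries, with a log2 fold change of -0.15 ± 0.06 (adjusted p = 0.0587) that turned to 0.08 under the same correction.

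In cells with Esrrb, the third comparison, DY131 changed 3 of the 5 keratins. KRT8 and KRT19 rose, KRT7 fell, and KRT18 and KRT15 did not pass, where 58.7% of tested genes passed (29.2% higher and 29.5% lower). The groups did not overlap for all 5 keratins and for 82.2% of tested genes. KRT8 was at 1246 and 1248 cpm in DU145-Esrrb and at 1627 and 1616 cpm in DU145-Esrrb DY131, a log2 fold change of 0.38 ± 0.09 (adjusted p = 0.00151). The replicates were close to each other and the groups far apart. The rise of KRT8 passed under all 19 alternatives, with log2 fold changes of 0.32 to 0.66.

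KRT7 was at 1301 and 1271 cpm in DU145-Esrrb and at 1058 and 1053 cpm in DU145-Esrrb DY131, a log2 fold change of -0.28 ± 0.06 (adjusted p = 0.000863). Its fall was lost after a correction for the share of windows that cross exon junctions (-0.1, adjusted p = 0.206) and turned to 0.05 after the GC and length correction (adjusted p = 0.529). The share of such windows correlated with the log2 fold changes of this comparison at a rho of -0.38 across 13608 genes. KRT7, with 22.2% of its windows across junctions, lies at percentile 71.6. The part of this in the fall of KRT7 cannot be told apart from the treatment, since both moved with the same 2 libraries.

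KRT19 was at 455 and 446 cpm in DU145-Esrrb and at 510 and 513 cpm in DU145-Esrrb DY131, a log2 fold change of 0.18 ± 0.06 (adjusted p = 0.0201). It did not pass when any 1 of these 4 libraries was left out, at adjusted p values of 0.0697 to 0.121. After the GC and length correction KRT19 was at 0.61, the highest of the 19 alternatives. KRT18 was at 917 and 935 cpm and, with ligand, at 784 and 818 cpm. Its log2 fold change was -0.21 ± 0.09 (adjusted p = 0.0514), and 0.12 after the GC and length correction.

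Esrrb in DY131-treated cells was compared next, with the same treatment on both sides. KRT8 and KRT19 were higher with Esrrb and KRT7 was lower, where 50.4% of tested genes passed (25.1% higher and 25.3% lower). The groups did not overlap for 3 of the 5 keratins and for 72.7% of tested genes. The log2 fold change of KRT8 was 0.33 ± 0.09 (adjusted p = 0.00527), that of KRT19 0.36 ± 0.06 (adjusted p = 0.000233) and that of KRT7 -0.35 ± 0.06 (adjusted p = 0.000229). All 3 passed under all 19 alternatives. KRT7 was at -0.2 after the correction for windows across exon junctions. The share of these windows correlated with the log2 fold changes of this comparison at a rho of -0.48 across 13608 genes. Its part in the keratin values was not tested. KRT8 ranged from 0.14 without replicate 1 of DU145-pc3.1 DY131 to 0.53 without replicate 2. KRT18 had a log2 fold change of -0.22 ± 0.09 (adjusted p = 0.0508), which was -0.4 without replicate 1 of DU145-pc3.1 DY131 (adjusted p = 3.15e-07) and -0.03 without replicate 2.

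Esrrb and DY131 together against untreated DU145-pc3.1 cells were compared next. KRT8 rose 1.48-fold (log2 fold change 0.57 ± 0.09, adjusted p = 4.55e-05) and KRT7 fell to 0.708 of its control level (-0.5 ± 0.06, adjusted p = 4.7e-06), where 59.3% of tested genes passed (29.1% higher and 30.1% lower). The groups did not overlap for 3 of the 5 keratins and for 81.5% of tested genes. KRT19 (0.12 ± 0.06, adjusted p = 0.108), KRT18 (-0.02 ± 0.09, adjusted p = 0.872) and KRT15 (0.13 ± 0.38, adjusted p = 0.789) did not pass. KRT8 passed under all 19 alternatives, with 0.51 to 0.85. KRT7 passed under 18 of them and was at -0.17 (adjusted p = 0.0518) after the GC and length correction. Under this correction KRT18 was at 0.31 (adjusted p = 0.0122) and KRT19 at 0.54 (adjusted p = 6.00e-06).

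The interaction term asked whether DY131 acted differently with Esrrb than without it. KRT19 responded more positively in DU145-Esrrb than in DU145-pc3.1 cells (log2 difference of fold changes 0.42 ± 0.09, adjusted p = 0.00207), and KRT18 more negatively (-0.4 ± 0.12, adjusted p = 0.0192), where 33.7% of tested genes passed (16.1% higher and 17.6% lower). The difference for KRT19 passed under all 17 alternatives. That for KRT18 did not pass under 7 of the 17, among them DESeq2 (adjusted p = 0.108) and the leaving out of replicate 1 of DU145-pc3.1 (adjusted p = 0.0807), replicate 2 of DU145-Esrrb (0.0544) or either library of DU145-Esrrb DY131 (0.0894 and 0.0526). It kept its direction, from -0.59 to -0.21. KRT7 (-0.13 ± 0.09, adjusted p = 0.253), KRT8 (0.14 ± 0.12, adjusted p = 0.415) and KRT15 (-0.85 ± 0.49, adjusted p = 0.195) did not pass.

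The value for KRT8 in the interaction rested on the libraries of DU145-pc3.1 DY131. It was 0.34 without replicate 2 (adjusted p = 0.000121) and -0.06 without replicate 1 (adjusted p = 0.529). The comparisons above share libraries with each other, so their values for a gene are not independent. No keratin among the 5 reached an absolute log2 fold change of 1 in any comparison, and 0 were called with that threshold, where 0.577% (Esrrb in untreated cells), 4.19% and 12.0% (DY131 in DU145-pc3.1 and DU145-Esrrb), 8.21% (Esrrb in DY131-treated cells), 12.8% (both against control) and 6.28% (interaction) of tested genes were.

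**Figure D4:**
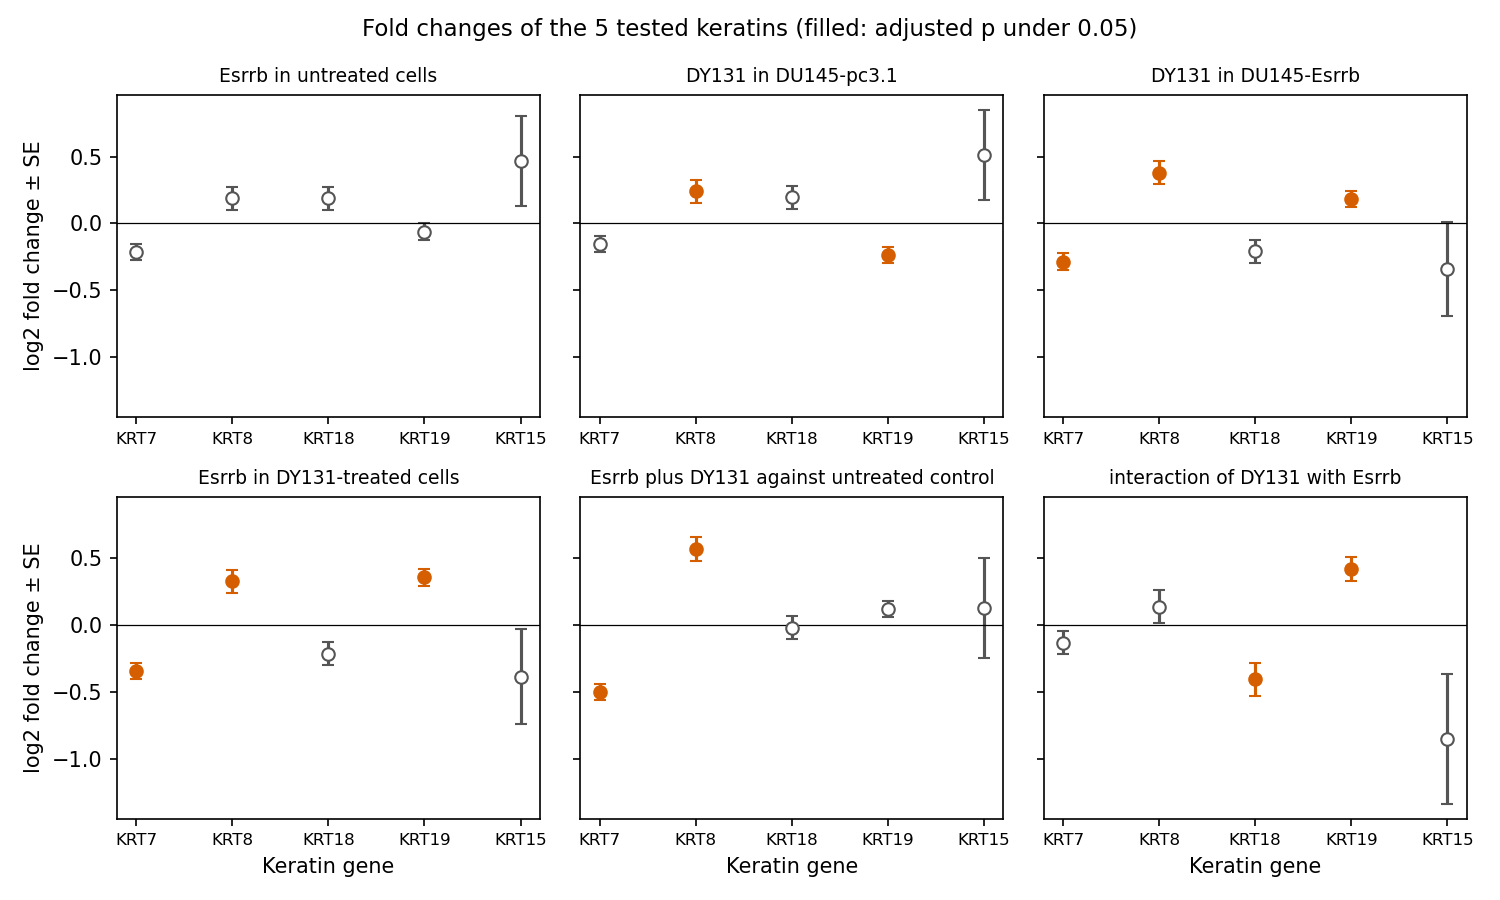
Log2 fold change ± SE of the 5 tested keratins in each of the 6 comparisons (edgeR, 2 libraries a group, all 8 in the fit); filled symbols passed at an adjusted p under 0.05. KRT8 lies above 0 and KRT7 below 0 in every panel, although the GC and length correction put KRT7 above 0 for DY131 in either pool, and KRT15 carries SE values of 0.34 to 0.49.

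The partner keratins KRT8 and KRT18 kept a nearly fixed ratio in 3 groups and another one in the fourth. The ratio of their RPKM levels was 1.27 and 1.23 in DU145-pc3.1, 1.26 and 1.24 in DU145-Esrrb, 1.28 and 1.29 in DU145-pc3.1 DY131, and 1.92 and 1.83 in DU145-Esrrb DY131. Both libraries of the last group lay above all 6 others. The replicates of DU145-pc3.1 DY131 differed in the level of KRT8 (1124 and 1460 cpm) and of KRT18 (815 and 1046 cpm) but not in the ratio. With 2 libraries against 2, an exact 2-sided permutation test cannot go below p = 0.333. This value was reached for DU145-Esrrb DY131 against each other group. It was also reached for DU145-pc3.1 DY131 against DU145-pc3.1, so the test does not set the fourth group apart.

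In the fitted values, KRT8 exceeded KRT18 by 0.59 in log2 fold change under DY131 in DU145-Esrrb. The range was 0.54 to 0.66 over the 19 alternatives, from the GC and length correction to the junction correction. Scaling, test and filter cancel out or nearly so in a difference between genes of the same libraries. Those alternatives therefore add little to this range and to those below. Without library a or b of DU145-Esrrb DY131 the difference was 0.55 or 0.62. In DU145-pc3.1 the same difference was 0.04 under DY131, with a range of 0.02 to 0.07 over 20 alternatives. For Esrrb without ligand it lay between -0.03 and 0.02 over 20 alternatives. Since both genes share windows with many pseudogenes, reads from other loci could enter each value, and their part was not tested.

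KRT7 and KRT19 moved apart in the opposite sense. The ratio of KRT7 to KRT19 in RPKM was 2.57 and 2.46 in DU145-pc3.1, 2.26 and 2.26 in DU145-Esrrb, 2.68 and 2.65 in DU145-pc3.1 DY131, and 1.64 and 1.63 in DU145-Esrrb DY131. None of the 4 groups overlapped another. The log2 fold change of KRT7 minus that of KRT19 was -0.62 for both treatments against control (range -0.71 to -0.58 over 19 alternatives). Here too the ends came from the GC and length correction and the junction correction, and scaling, test and filter could hardly move the difference. The ratio of both type II genes together to both type I genes together stayed between 1.59 and 1.8 in all 8 libraries.

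**Figure D5:**
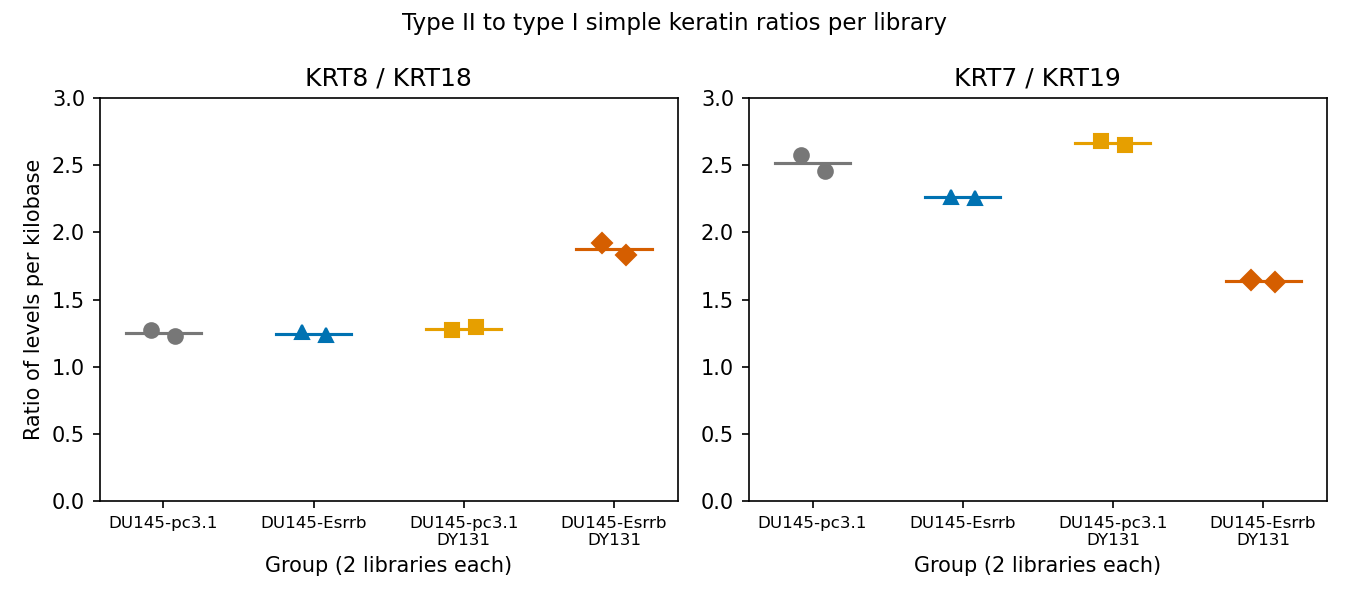
Ratio of RPKM levels of KRT8 to KRT18 (left) and of KRT7 to KRT19 (right) in each library; symbols are libraries and lines are group means of 2. On the left the libraries of DU145-Esrrb DY131 lie at 1.92 and 1.83 and the other 6 between 1.23 and 1.29; on the right DU145-Esrrb DY131 lies lowest, at 1.64 and 1.63.

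The epithelial markers EPCAM and CDH1 summed to 262 to 268 cpm in DU145-pc3.1, 205 to 208 in DU145-Esrrb, 190 to 236 in DU145-pc3.1 DY131 and 139 to 153 in DU145-Esrrb DY131. Their part in the keratin values was not tested. In bulk RNA, fewer cells with a keratin and less keratin RNA per cell cannot be told apart.

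Of the other 45 keratin genes in the table, 25 had no read in any library and 5 were tested. KRT4, a type II keratin of stratified mucosa, fell with DY131 in both pools. It had 52 and 50 reads in DU145-pc3.1, 51 and 47 in DU145-Esrrb, 9 and 12 in DU145-pc3.1 DY131, and 6 and 6 in DU145-Esrrb DY131. The log2 fold change with DY131 was -2.2 ± 0.29 in DU145-pc3.1 (adjusted p = 3.43e-05) and -2.55 ± 0.34 in DU145-Esrrb (adjusted p = 1.1e-05), and the interaction did not pass (adjusted p = 0.64). No 50-base window of the KRT4 transcript occurred unchanged in another gene.

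KRT86, a type II hair keratin, fell with DY131 in DU145-Esrrb, from 48 and 35 reads to 9 and 14 reads (log2 fold change -1.39 ± 0.32, adjusted p = 0.00155). In DU145-pc3.1 it had 29 and 37 reads untreated and 23 and 28 reads with DY131 (-0.3 ± 0.28, adjusted p = 0.431). The interaction was -1.09 ± 0.43 (adjusted p = 0.063), so the response was not shown to differ between the pools. Of its 2168 windows, 9.04% occur unchanged in genes elsewhere. In addition, 1167 windows match, with up to 2 mismatches, a gene that overlaps its locus. KRT80, a type II keratin, fell in all 5 comparisons between groups, most for Esrrb plus DY131 against control (-0.58 ± 0.06, adjusted p = 8.84e-07). KRT10, a type I keratin of the upper epidermis, was higher in DU145-Esrrb DY131 than in each other group, by 0.33 to 0.38 on the log2 scale. Together, the 5 tested other keratins had a median log2 fold change of -0.58 for Esrrb plus DY131 against control, where the median of all tested genes was -0.01, and 1 passed higher and 3 lower, where 29.1% of all tested genes passed higher and 30.1% lower.

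The pseudogenes KRT16P2 and KRT16P3, named after their values were seen, share 52.9% and 75.3% of their windows with other genes, most often with KRT16P1. KRT16P2 had 9 and 13 reads in DU145-pc3.1, 14 and 7 in DU145-Esrrb, 0 and 0 in DU145-pc3.1 DY131, and 1 and 3 in DU145-Esrrb DY131. Against the limit of 3 reads per library, it was at least 3.47-fold lower in DU145-pc3.1 DY131 than in DU145-pc3.1. The reads of KRT14, KRT16, KRT17, KRT16P2 and KRT16P3 added up to 12 and 23 in DU145-pc3.1, 24 and 17 in DU145-Esrrb, 3 and 4 in DU145-pc3.1 DY131, and 2 and 5 in DU145-Esrrb DY131. This sum was lower with DY131 in DU145-pc3.1 (log2 fold change -2.21 ± 0.54) and in DU145-Esrrb (-2.06 ± 0.53). No p-value is given, because the pseudogenes in it were picked after their values were seen. KRT14, KRT16 and KRT17 made up 1 to 4 of these reads in a library, so the fall lay in the pseudogene reads.

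Genes that anchor keratin filaments in desmosomes and hemidesmosomes were taken as a list of 24, of which 23 were tested. With DY131, 11 rose and 5 fell in DU145-pc3.1 cells (median log2 fold change 0.3, all genes 0), where 18.9% of all tested genes rose and 18.5% fell. In DU145-Esrrb cells 11 rose and 5 fell (median 0.24), where 29.2% of all tested genes rose and 29.5% fell. For Esrrb without ligand, 0 rose and 5 fell, where 1.68% rose and 2.50% fell. DSG3, a desmosomal cadherin of basal keratinocytes, had 366 and 545 reads in DU145-pc3.1, 11 and 9 in DU145-Esrrb, 11 and 4 in DU145-pc3.1 DY131, and 5 and 5 in DU145-Esrrb DY131. Only the untreated control libraries held it at more than 11 reads, and the log2 fold change was -5.54 ± 0.25 with Esrrb and -5.82 ± 0.26 with DY131 (adjusted p = 2.32e-09 and 2.52e-09).

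JUP, the plakoglobin that links desmosomal cadherins to keratins, was at 111 and 106 cpm in DU145-pc3.1 and at 38.7 and 44.5 cpm in DU145-Esrrb DY131. Its log2 fold change was -1.38 ± 0.09 (adjusted p = 4.98e-09). JUP was also lower with Esrrb without ligand (-0.6 ± 0.08, adjusted p = 0.000318) and with DY131 in DU145-pc3.1 (-0.6 ± 0.08, adjusted p = 3.63e-05). Its interaction did not pass (-0.18 ± 0.12, adjusted p = 0.277). PPL, the linker periplakin, fell with DY131 in DU145-pc3.1 (-1.36 ± 0.1, adjusted p = 1.17e-07) and in DU145-Esrrb (-0.59 ± 0.09, adjusted p = 6.39e-05). The desmosomal plaque gene PKP1 rose in both (1.15 ± 0.13 and 0.89 ± 0.13, adjusted p = 9.47e-06 and 3.93e-05). COL17A1, a hemidesmosomal collagen, rose with DY131 in DU145-Esrrb (1.02 ± 0.13, adjusted p = 7.11e-06) and in DU145-pc3.1 (0.35 ± 0.12, adjusted p = 0.0305), as did PNN (1.31 ± 0.15 and 0.81 ± 0.15, adjusted p = 2.22e-06 and 0.000506). In the interaction, 4 genes of the list passed higher and 4 lower, where 16.1% of all tested genes passed higher and 17.6% lower. DSG3 passed at 5.29 ± 0.9 (adjusted p = 0.000424). With 9 to 11 reads in DU145-Esrrb and 5 in each DU145-Esrrb DY131 library, a further fall of that size could not be seen there.

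Of 28 epithelial transcription factors, 19 were tested. With DY131, 3 rose and 6 fell in DU145-pc3.1 (18.9% and 18.5% of all tested genes), and 9 rose and 5 fell in DU145-Esrrb (29.2% and 29.5% of all). For Esrrb alone 1 rose and 1 fell (1.68% and 2.50% of all). FOS, a subunit of AP-1, fell in both pools (-3.35 ± 0.27 and -3.31 ± 0.27, adjusted p = 3.68e-07 and 8.72e-08), and so did the epithelial ETS factor ELF3 (-1.96 ± 0.15 and -1.64 ± 0.16, adjusted p = 2.97e-07 and 6.53e-07). JUNB, another AP-1 subunit, also fell with DY131 in both pools (-1.08 ± 0.08 in each, adjusted p = 1.54e-07 and 3.78e-08). SOX9 rose with DY131 in DU145-Esrrb (1.57 ± 0.14, adjusted p = 1.34e-07) and in DU145-pc3.1 (0.88 ± 0.13, adjusted p = 9.83e-05). OVOL2 was lower with Esrrb in DY131-treated cells (-1.11 ± 0.43, adjusted p = 0.0399), at 6 to 24 reads in these libraries.

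Of 26 squamous differentiation genes, 7 were tested, and for Esrrb plus DY131 against control 4 rose and 1 fell (median log2 fold change 0.5, all genes -0.01), where 29.1% of all tested genes rose and 30.1% fell. CSTB, a cysteine protease inhibitor, rose (1.14 ± 0.06, adjusted p = 3.87e-10), as did FLG, which encodes filaggrin (1.19 ± 0.19, adjusted p = 7.03e-05), and S100A9, a calcium-binding protein, fell (-3.17 ± 0.74, adjusted p = 0.0018) from 49 and 24 reads to 0 and 6. IVL, the envelope protein involucrin, rose with DY131 in DU145-pc3.1 (1.22 ± 0.29, adjusted p = 0.00389) and in DU145-Esrrb (1.11 ± 0.44, adjusted p = 0.0422), and in DY131-treated cells it was lower with Esrrb (-1.44 ± 0.32, adjusted p = 0.00157). With Esrrb alone, 0 of the 7 passed.

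Of 16 other intermediate filament genes, 13 were tested. With DY131, 7 rose and 1 fell in DU145-pc3.1 (18.9% and 18.5% of all tested genes), and 6 rose and 0 fell in DU145-Esrrb (29.2% and 29.5% of all). The neuronal filament gene INA rose with DY131 in DU145-pc3.1, from 48 and 39 reads to 204 and 207 (2.31 ± 0.17, adjusted p = 1.61e-07), and was lower with Esrrb in treated cells (-2.67 ± 0.19, adjusted p = 2.65e-08), with an interaction of -1.5 ± 0.34 (adjusted p = 0.00358). NEFL was lower with Esrrb without ligand (-1.61 ± 0.29, adjusted p = 0.00451) and with it (-2.72 ± 0.32, adjusted p = 5.93e-06). NEFM rose with DY131 in both pools (1.26 ± 0.21 and 1.34 ± 0.2, adjusted p = 0.000198 and 3.77e-05), while PRPH fell in DU145-pc3.1 (-1.03 ± 0.3, adjusted p = 0.0127) and was at -0.61 ± 0.26 in DU145-Esrrb (adjusted p = 0.0571).

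Among tested genes other than keratins with a mean of at least 10 cpm, those whose levels over the 8 libraries were most like the mean of the 4 simple keratins were ERCC4, NXT2, CHMP2B, MGLL and FCF1, with Pearson correlations of 0.913 to 0.948 for gene-centred log2 cpm. Those most like KRT15 were ZCCHC11, SHPRH, SPG11, FURIN and SESTD1 (0.875 to 0.952). These are descriptions over libraries that share 4 groups. Promoter sequences from RefSeq (GRCh38.p14) were at hand for KRT5 and KRT8, and neither held the estrogen related receptor element TCAAGGTCA, its relaxed form TNAAGGTCA or the AP-1 motif TGANTCA on either strand in the 250 bases before and 50 bases after the start. The KRT8 window is that of 1 of several starts. Both the KRT8 and the KRT5 window lie inside the gene as GENCODE bounds it. Of 35116 promoters of this length, 0.353%, 0.951% and 7.71% held these motifs, and the first motif is contained in the second.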

How the data were processed

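TruSeq Stranded mRNA libraries were read as single ends of 50 bases. In the study's methods, FASTX-Toolkit served for trimming, TopHat2 for mapping to hg18 and MULTICOM-MAP for counting. The deposited values are raw counts, whole numbers that the authors had not normalized. The treatment of strand and of reads that fit several genes is not given in the sources used here.

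A minimum of 1 cpm in 2 libraries left 13856 genes, 5 of the 10 keratins among them. TMM-scaled counts of all 8 libraries, in 4 groups, were tested with edgeR 4.0.16 (R 4.3.3), by the quasi-likelihood F test with Benjamini-Hochberg adjustment over the 13856 genes. A gene passed at an adjusted p under 0.05, and was called if its absolute log2 fold change also reached 1. The exact test of edgeR, used in the study, is among the alternatives, with DESeq2 1.42.0, other scaling, filters and gene property corrections.

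Groups came from the sample labels. Titles number the replicates of 6 libraries, while column names carry other numbers. Transcripts and windows came from GENCODE 29 on GRCh38. RefSeq identifiers matched 22018 genes, symbols 721 more and older symbols 13, and 639 had no match. The replicates are biological per the study, and p-values measure the spread between 2 libraries a group.

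The keratins, the lists and the tests were chosen with earlier results of these data known. At most the 3 called genes of largest change per list and comparison are named, with every called other keratin and the 5 genes of most like pattern per class. The programs were tested on simulated data. Some markers and 1 sequence stretch are not reported here.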

Additional observations from a re-analysis of the deposited data

Results flagged for a closer look

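In 2 of the 5 tested keratins the effect of DY131 differed between DU145-Esrrb and DU145-pc3.1 cells by the interaction test in edgeR. For KRT19 the difference was 0.42 on the log2 scale (adjusted p = 0.00207), with a fall in DU145-pc3.1 and a rise in DU145-Esrrb. For KRT18 it was -0.40 (adjusted p = 0.0192), with values of 0.2 and -0.21 in the pools, neither of which passed on its own. KRT18 no longer passed under 7 of 17 alternatives, and KRT19 passed under all 17. No group was large enough to look for single libraries that stand apart.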

How the results depend on the processing

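The fold changes of the 5 tested keratins were recomputed under 17 to 20 alternatives per comparison. Of values that passed, 198 kept their direction and passed again, 25 no longer passed and 3 reversed. Of values that had not passed, 284 stayed so, 47 passed and 13 reversed. Under the GC and length correction the log2 fold change turned to 0.081 (KRT7) and 0.012 (KRT19) for DY131 in DU145-pc3.1, to 0.055 (KRT7) and 0.12 (KRT18) for DY131 in DU145-Esrrb, and to 0.31 (KRT18) for Esrrb plus DY131. With exon junctions added, a correction chosen after seeing the data, the values were 0.050 (KRT7) and 0.049 (KRT18) for DY131 in DU145-Esrrb, and 0.24 (KRT18) and -0.042 (KRT15) for Esrrb plus DY131. With junctions alone, Esrrb plus DY131 gave 0.14 for KRT18 and -0.011 for KRT15, and the interaction gave 0.011 for KRT7. The cause was not tested. Leaving out 1 library at a time gave -0.27 to 0.63 for KRT15 and -0.084 to 0.045 for KRT18 (Esrrb plus DY131) and -0.056 to 0.34 for KRT8 (interaction). A lone sample of a group is then assumed to vary like the other groups.

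For Esrrb in untreated cells, 0 keratins passed, against 1 with the exact test, DESeq2, library size alone or at least 10 counts in every library, 3 with no filter or only the 4 libraries compared, and 0 to 3 with 1 library left out. For DY131 in DU145-pc3.1, 2 passed, against 4 with no filter, 1 with only the 4 libraries compared, and 0 to 3 with 1 library left out. For Esrrb plus DY131, 4 instead of 2 passed with the 3 corrections together. For the interaction, 1 instead of 2 passed with DESeq2, the GC and length correction or the junction correction, and 1 to 3 with 1 library left out. The count called was 0 throughout, except 1 with near-identical keratins counted together (DY131 in DU145-pc3.1, DY131 in DU145-Esrrb, Esrrb plus DY131). That 1 was the sum of KRT14, KRT16, KRT17 and the pseudogenes KRT16P2 and KRT16P3, and no single keratin. These pseudogenes were named after their values were seen, so this call is no test. Without a fold threshold the counts were 2, 3, 3, 2 and 2 (DY131 in DU145-pc3.1, DY131 in DU145-Esrrb, Esrrb in DY131-treated cells, Esrrb plus DY131, interaction). The basal share of the summed level was 0.0506%, 0.0662%, 0.0763% and 0.0527% with exons within the RefSeq gene, in the order DU145-pc3.1, DU145-Esrrb, DU145-pc3.1 DY131 and DU145-Esrrb DY131, instead of 0.0202%, 0.025%, 0.0333% and 0.0207%, and 0.0267% in DU145-Esrrb with the longest transcript.

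Replicate numbers did not pair the samples: the correlation of their deviations across genes was 0.0917, 0.0229 and -0.0685 between the 3 pairs of numbered groups. In these 6 libraries, a replicate block gave 0 passing keratins for Esrrb in untreated cells, as without it, and 2 for DY131 in DU145-pc3.1, against 1 without it (KRT8, adjusted p = 0.0328 and 0.0647). Depth limits KRT5, KRT6A, KRT14, KRT16 and KRT17, all at or under 3 reads, and leaves KRT15 with SE values of 0.34 to 0.49.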
